A study of Mus musculus with 9 samples.

Results

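Antigen presentation by the dendritic cells of the skin was examined through 10 genes, taken by symbol from the 17943 genes of a count table of mouse skin: *Cd207*, *H2-Aa*, *H2-Ab1*, *H2-Eb1*, *Cd74*, *Ciita*, *Itgax*, *Flt3*, *Xcr1* and *Cd209a*. No measured value entered the choice by symbol, but results of these data were known when the genes were chosen. The libraries are bulk RNA-Seq of whole skin from 5 control and 4 *Supt6*-KO mice, harvested on day 10 after the final injection. *Supt6* encodes SPT6, a histone chaperone that travels with RNA polymerase II and is needed for transcription elongation. The *Supt6*-KO mice carried K14-CreERT and *Supt6* fl/fl and received tamoxifen intraperitoneally, so that Cre was switched on in cells with an active keratin 14 promoter, mainly basal keratinocytes, and not in cells of blood origin by design. The controls were *Supt6* fl/fl mice without the Cre that received corn oil, which the sample labels call wild-type. Both groups therefore share the floxed alleles and differ in both the Cre and the tamoxifen, which cannot be told apart. The study describes the *Supt6*-KO samples as lesional skin and the control samples as matched skin. Lesion and genotype therefore cannot be told apart either. The labels name the ear as the tissue and the study's methods dorsal skin, and neither strain nor age is given in the labels.

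Langerhans cells are the dendritic cells that live among the keratinocytes of the epidermis, and langerin, the product of *Cd207*, forms their Birbeck granules. Professional antigen-presenting cells show peptides to CD4 T cells on MHC class II, a dimer of an α chain (*H2-Aa* for I-A) and a β chain (*H2-Ab1* for I-A, *H2-Eb1* for I-E) that is assembled around the invariant chain CD74. CIITA, the master coactivator of this system, does not bind DNA itself but is recruited to the X and Y boxes of MHC class II promoters by a complex of RFX, CREB and NF-Y proteins. *Itgax* encodes the integrin CD11c of dendritic cells and some macrophages, and *Flt3* the receptor for the cytokine that drives dendritic cell development. *Xcr1* encodes the chemokine receptor of type 1 conventional dendritic cells, and *Cd209a* a lectin found on dermal dendritic cells and monocyte-derived cells.

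Each library held between 29627334 and 30967109 counts after rounding of the deposited estimated counts, so depth differed little between mice. Levels are given as counts, or as counts-per-million (CPM) values after library sizes were adjusted by the TMM method, which corrects for a few abundant genes taking up much of a library. The groups were compared with edgeR's quasi-likelihood test over 16426 genes, and a gene was called where the Benjamini-Hochberg adjusted p was under 0.05. *Supt6* itself was at 76.5 ± 17.2 CPM in the controls (SD, n = 5) and 25.7 ± 3.31 CPM in *Supt6*-KO skin (SD, n = 4), with a log2 fold change of -1.57 (SE 0.18, edgeR adjusted p = 1.3e-05). Keratinocyte RNA was abundant in both groups, with *Krt5* at 4631 ± 202 CPM in controls against 2544 ± 848 CPM in *Supt6*-KO skin, and no marker was used to tell ear from dorsal skin.

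Of the 10 genes, 9 were lower and 1, *Xcr1*, was higher in *Supt6*-KO skin. Changes were widespread in these libraries, since 36.8% of all genes tested were called lower and 34.1% higher. Scaling by library totals instead of TMM shifted the calls over all genes from 6050 lower and 5608 higher to 8970 lower and 2771 higher, and the median over all genes from -0.072 to -0.759 on the log2 scale, so each fold change is to be read against the median of all genes. A fall of at least 2-fold was called for 7 of the 10 genes, against 24.9% of all genes tested. The *Supt6*-KO mice were all below the lowest control for 8 of the 10 genes, against 31.8% of all genes, and above for *Xcr1*, against 28.9%. The median log2 fold change of the 10 genes was -1.78, and that of all genes tested was -0.072. In whole skin, fewer cells of a type and less RNA per cell cannot be told apart.

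**Figure D1:**
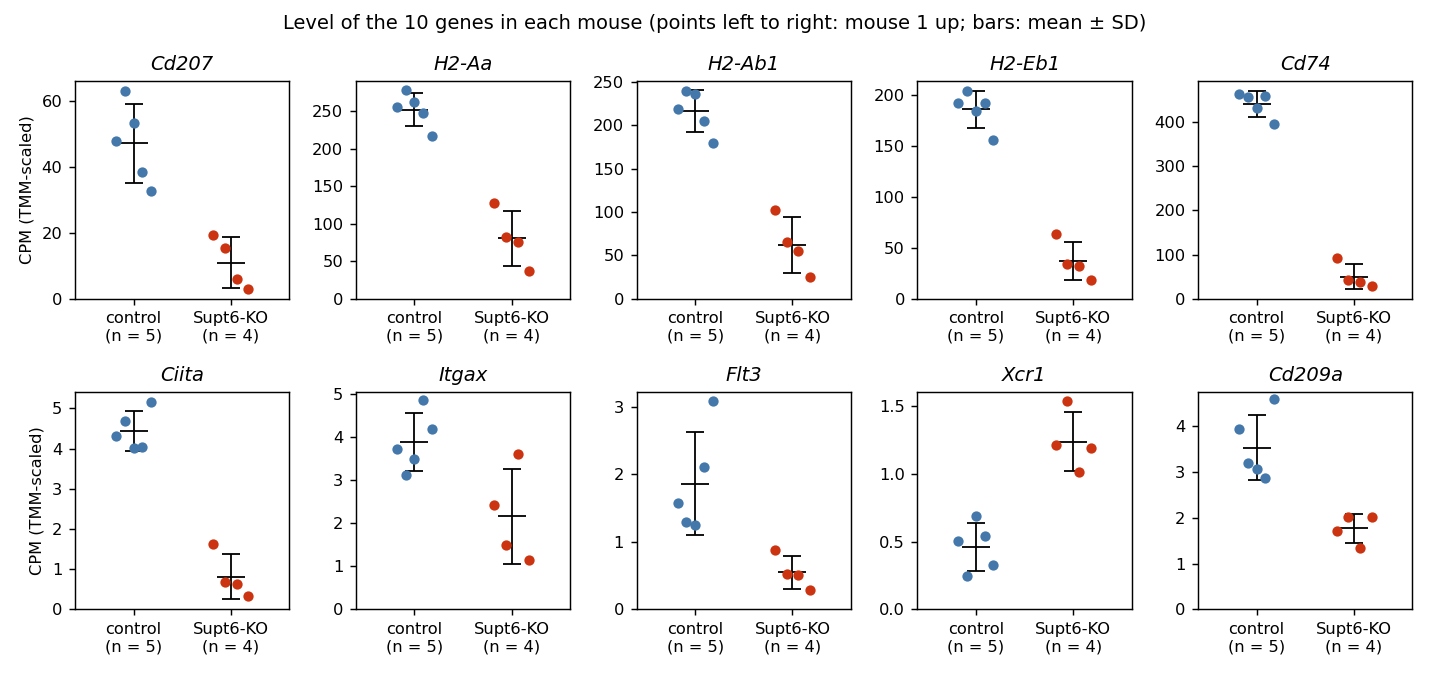
Level of each of the 10 genes in CPM (TMM-scaled, linear axes from 0) in the 5 control mice (blue) and the 4 *Supt6*-KO mice (red), with 1 point per mouse and bars for the mean and SD. The groups are apart for 9 genes, with *Xcr1* the one that is higher in *Supt6*-KO skin, and they overlap for *Itgax*.

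*Cd207*, the Langerhans cell gene, had 1796, 2303, 1931, 1425 and 1285 counts in controls 1 to 5. In *Supt6*-KO mice 1 to 4 it had 463, 321, 129 and 81 counts. The highest *Supt6*-KO mouse was thus well under the lowest control, and the *Supt6*-KO mice spanned a 6.65-fold range in CPM among themselves. The mean fell from 47.2 ± 12 CPM in the controls (SD, n = 5) to 10.9 ± 7.76 CPM (SD, n = 4), or to 23.1% of the control level (log2 fold change -2.12, SE 0.46, edgeR adjusted p = 0.0015). *Epcam*, an adhesion gene of Langerhans cells that keratinocytes of the hair follicle also express, stood at 137 ± 26.8 CPM in controls against 180 ± 50 CPM in *Supt6*-KO skin (log2 fold change 0.39, edgeR adjusted p = 0.11). It was called higher without *Supt6*-KO mouse 4 (0.55, edgeR adjusted p = 0.014), and its direction turned with library totals (-0.32, edgeR adjusted p = 0.15). The ratio of *Cd207* to *Epcam* counts in the same library was 0.289 to 0.4 in controls and 0.0247 to 0.0821 in *Supt6*-KO mice, with no overlap.

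The α and β chain genes of MHC class II fell together. *H2-Aa* stood at 255, 278, 262, 248 and 217 CPM in controls 1 to 5 and at 127, 82.3, 75 and 37.2 CPM in *Supt6*-KO mice 1 to 4. *H2-Ab1* stood at 219, 239, 236, 205 and 180 CPM in controls and at 102, 65.8, 54.9 and 24.6 CPM in *Supt6*-KO mice. In both genes the controls lay close to each other, and each *Supt6*-KO mouse was lower than every control. The log2 fold change was -1.65 for *H2-Aa* (SE 0.28, edgeR adjusted p = 0.00025) and -1.81 for *H2-Ab1* (SE 0.32, edgeR adjusted p = 0.00035). *H2-Eb1* stood at 192, 204, 184, 192 and 156 CPM in controls and at 63.4, 34, 32.1 and 18.3 CPM in *Supt6*-KO mice. This β chain gene fell by 2.33 on the log2 scale (SE 0.29, edgeR adjusted p = 3e-05), and its groups did not overlap.

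*Cd74*, the invariant chain gene that guides MHC class II to the endosome, had the lowest log2 fold change of the 10 genes. It stood at 465, 457, 432, 460 and 395 CPM in controls 1 to 5. In *Supt6*-KO mice 1 to 4 it stood at 92.4, 42.8, 37.4 and 28.7 CPM. Even the highest *Supt6*-KO mouse was far under the lowest control. The mean fell 8.79-fold, from 442 ± 29 CPM in the controls (SD, n = 5) to 50.3 ± 28.7 CPM (SD, n = 4), or to 11.4% of the control level (log2 fold change -3.14, SE 0.32, edgeR adjusted p = 5.9e-06). Of all genes tested, 3.09% had a lower log2 fold change than *Cd74*, against 8.98% for *Cd207* and 14.7% for *H2-Aa*.

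*Ciita*, the coactivator gene, was expressed at a far lower level than the genes it controls, with 161, 171, 145, 149 and 203 counts in controls 1 to 5. In *Supt6*-KO mice 1 to 4 it had 39, 14, 14 and 9 counts, which is below every control. The mean fell from 4.44 ± 0.489 CPM in the controls (SD, n = 5) to 0.816 ± 0.565 CPM in *Supt6*-KO skin (SD, n = 4), with a log2 fold change of -2.44 (SE 0.37, edgeR adjusted p = 0.00011). *Ciita* shares part of its locus with *Dexi* on the opposite strand, and since the strand setting of the counting is not given in the sources used here, reads of both genes may not be separable. The same holds for *H2-Eb1* with the antisense gene *Gm20513* and for *Flt3* with the antisense gene *Gm26597*.

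The 3 chain genes lie close together on mouse chromosome 17 (mm10): *H2-Ab1* at chr17:34257689-34269419, *H2-Aa* at chr17:34282744-34287823 on the reverse strand and *H2-Eb1* at chr17:34305867-34316674. Promoter windows from 250 bases before to 50 bases after the start site (RefSeq, GRCm38.p6) were matched for 7 of the 10 genes. They were searched on both strands for the core of the X box (AGCAACNGA), the X2 element bound by CREB proteins (TGACGTCA) and the Y box bound by NF-Y (CTGATTGG). The X box core was found in 440 of 32851 windows of all genes (1.34%), the X2 element in 1.79% and the Y box in 4.1%. The 150 bases before the start site of *H2-Aa* (chr17:34287824-34287973, reverse strand) and *H2-Eb1* (chr17:34305717-34305866, forward strand) are shown because each holds matches to 2 of these motifs. Capitals mark the matches.
H2-Aa: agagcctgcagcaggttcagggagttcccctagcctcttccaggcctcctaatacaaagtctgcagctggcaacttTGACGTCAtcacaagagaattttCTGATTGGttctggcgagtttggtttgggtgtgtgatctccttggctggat
H2-Eb1: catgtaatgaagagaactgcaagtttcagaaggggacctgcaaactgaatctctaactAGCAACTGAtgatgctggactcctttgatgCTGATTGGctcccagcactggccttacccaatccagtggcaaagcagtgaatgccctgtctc

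In *H2-Aa* the capitals are the X2 element, whose first base is at position -74 from the start site, and the Y box at -51, and the X box core was not found. In *H2-Eb1* they are the X box core at -92 and the Y box at -62, and the X2 element was not found. None of these letters occurred in the windows of *Cd207*, *Itgax*, *Flt3*, *Xcr1* and *Cd209a*. A match of letters is a description of the sequence and not evidence of binding in these mice.

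Among the dendritic cell genes, *Flt3* had 59, 47, 45, 78 and 121 counts in controls 1 to 5 and 21, 11, 11 and 8 counts in *Supt6*-KO mice 1 to 4. The groups did not overlap, and this cytokine receptor gene fell by 1.76 on the log2 scale (SE 0.38, edgeR adjusted p = 0.0015). *Cd209a*, the lectin gene of dermal dendritic cells, had 147, 116, 111, 106 and 180 counts in controls and 41, 42, 29 and 56 counts in *Supt6*-KO mice. It fell to 50.1% of the control level in CPM, with the groups apart and a log2 fold change of -0.99 (SE 0.22, edgeR adjusted p = 0.0015). *Itgax*, the CD11c gene, had 140, 114, 126, 180 and 165 counts in controls and 58, 31, 79 and 32 counts in *Supt6*-KO mice. Its groups overlapped in CPM, because *Supt6*-KO mouse 3 at 3.61 CPM stood above controls 2 and 3 at 3.12 and 3.49 CPM. The log2 fold change of *Itgax* was -0.85 (SE 0.31, edgeR adjusted p = 0.028). This call was lost without control 4 (-0.75), without *Supt6*-KO mouse 2 (-0.72), without *Supt6*-KO mouse 4 (-0.64) and with a correction for gene length (-0.62).

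*Xcr1*, the chemokine receptor gene of type 1 conventional dendritic cells, went the other way at very low counts. It had 19, 9, 25, 20 and 13 counts in controls 1 to 5 and 29, 32, 22 and 33 counts in *Supt6*-KO mice 1 to 4. In counts *Supt6*-KO mouse 3 was under control 3, and after TMM scaling all *Supt6*-KO mice were above all controls, at 1.23 ± 0.22 CPM (SD, n = 4) against 0.464 ± 0.177 CPM (SD, n = 5). The log2 fold change was 1.41 (SE 0.31, edgeR adjusted p = 0.0017). With library totals in place of TMM it was 0.71 and the call was lost (edgeR adjusted p = 0.063).

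On a scale that corrects for gene length, the authors' transcripts-per-million (TPM) values, the order of the levels in the 5 controls ran from *Cd74* at 732 ± 71.3 TPM through *H2-Aa* at 493 ± 19.9, *H2-Ab1* at 390 ± 7.37, *H2-Eb1* at 217 ± 14.8, *Cd207* at 60.6 ± 8.77 and *Cd209a* at 4.9 ± 1.57 TPM. The ranges of these 6 genes over the controls did not overlap between neighbours in the order. *Itgax*, *Ciita* and *Flt3*, at 1.72 ± 0.454, 1.42 ± 0.31 and 0.92 ± 0.503 TPM, overlapped in range, and *Xcr1* came last at 0.178 ± 0.0642 TPM. TPM values were deposited for *Supt6*-KO mouse 4 alone of that group. In that mouse *H2-Aa* led at 37.1 TPM, ahead of *Cd74* at 24.5 TPM and *H2-Ab1* at 22.6 TPM.

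Counts of 2 genes in the same library can be divided without any scaling between libraries. *Cd74* had 1.82, 1.65, 1.65, 1.85 and 1.82 counts per count of *H2-Aa* in controls 1 to 5 and 0.73, 0.52, 0.498 and 0.771 in *Supt6*-KO mice 1 to 4. The invariant chain gene thus fell further than the α chain gene in each *Supt6*-KO mouse, relative to the controls. The ratio of *H2-Eb1* to *H2-Aa* went from 0.736 ± 0.0269 (SD, n = 5) to 0.458 ± 0.0443 (SD, n = 4), and that of *H2-Ab1* to *H2-Aa* from 0.856 ± 0.0313 to 0.749 ± 0.0678. Neither pair of ranges overlapped, but the I-A chains stayed closer to each other than either did to *Cd74*. *H2-Aa* had 57.5 ± 8.97 counts per count of *Ciita* in controls and 108 ± 20.5 in *Supt6*-KO mice, without overlap. The order of their fold changes depended on the correction for gene length, with which the log2 values were -1.85 for *Ciita* and -2.10 for *H2-Aa*, whereas *Cd74*, at -3.44, stayed lower than *H2-Aa*. The ratio of *Cd207* to *H2-Aa* overlapped between groups, at 0.151 to 0.227 in controls and 0.0783 to 0.187 in *Supt6*-KO mice.

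**Figure D2:**
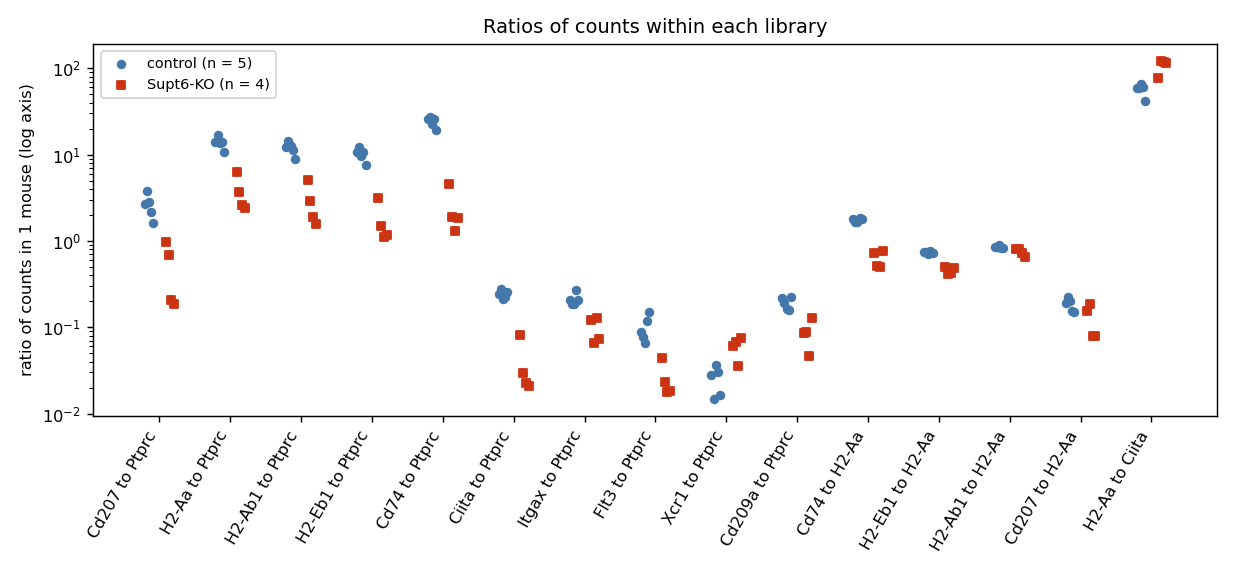
Ratios of counts within each library (log axis), with 1 point per mouse for the 5 controls (blue circles) and the 4 *Supt6*-KO mice (red squares). The ratios of 9 genes to *Ptprc* lie lower in *Supt6*-KO mice, that of *Xcr1* overlaps, and *Cd74* drops from 1.76 ± 0.102 to 0.63 ± 0.141 relative to *H2-Aa*.

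*Ptprc*, which encodes the pan-leukocyte antigen CD45, was not called with TMM, but its call depended on the processing. It had 671, 608, 683, 662 and 798 counts in controls 1 to 5 and 481, 470, 624 and 433 counts in *Supt6*-KO mice 1 to 4, or 18.3 ± 1.36 CPM against 21.7 ± 5.41 CPM (log2 fold change 0.24, edgeR adjusted p = 0.21). It was called lower with library totals (-0.49, edgeR adjusted p = 0.013), and higher with the length correction (0.95, edgeR adjusted p = 0.00051) and without *Supt6*-KO mouse 4 (0.37, edgeR adjusted p = 0.027). Ratios to *Ptprc* do not depend on the scaling between libraries but carry any change of *Ptprc* itself. Relative to *Ptprc*, all *Supt6*-KO mice were below all controls for 9 of the 10 genes, where this held for 30.6% of all genes tested. *Cd207* had 1.61 to 3.79 counts per count of *Ptprc* in controls and 0.187 to 0.963 in *Supt6*-KO mice. *Cd74* had 19.5 to 27.5 in controls and 1.31 to 4.6 in *Supt6*-KO mice. *Xcr1* overlapped, at 0.0148 to 0.0366 against 0.0353 to 0.0762. The other 6 pan-leukocyte genes were tried as denominators as well. The same 9 genes were below relative to *Coro1a* and *Itgb2*, where this held for 32.8% and 24.6% of all genes tested. *Coro1a* itself was called higher with TMM (log2 fold change 0.45, edgeR adjusted p = 0.042), but not with library totals (-0.28, edgeR adjusted p = 0.14) or the length correction (-0.03, edgeR adjusted p = 0.86), nor without any one of controls 2 to 5 or *Supt6*-KO mice 1 to 3 (0.29 to 0.47). The 9 genes were also below relative to *Cd53*, *Tyrobp* and *Fcer1g*, which rose by 1.49, 2.11 and 0.96 on the log2 scale, where 67.9%, 77.8% and 54.8% of all genes were below relative to them. *Laptm5*, a lysosomal gene of blood cells, fell by 1.83, and 2.9% of all genes were below relative to it. Relative to *Laptm5*, *Cd74* stayed below, *Cd209a* and *Xcr1* were above and the other 7 genes overlapped. The share of all genes above relative to *Laptm5* was not counted.

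Among the *Supt6*-KO mice, mouse 1 was the highest and mouse 4 the lowest for 7 of the 10 genes. *Cd207* stood at 41, 32.7, 12.5 and 6.17% of the control mean in *Supt6*-KO mice 1 to 4, *H2-Aa* at 50.2, 32.6, 29.8 and 14.8%, and *Cd74* at 20.9, 9.68, 8.45 and 6.49%. The others were *H2-Ab1*, *H2-Eb1*, *Ciita* and *Flt3*, and mice 1 and 4 kept these places with library totals. *Cd74* was then at 4.81% in mouse 3 and 4.75% in mouse 4, so its lowest place was not resolved. Mice 2 and 3 had 14 counts each of *Ciita* and 11 each of *Flt3*, so their order in these genes was not resolved. Mouse 4 had 9 and 8 counts of these genes, so its lowest place there rests on few counts. *Itgax* was highest in mouse 3, and *Xcr1* and *Cd209a* had yet other orders. The order was not particular to these genes, and the share of all genes with it was not counted. *Il34*, at 26.4, 23.6, 18.7 and 10 CPM in mice 1 to 4, and *Epcam*, at 236, 199, 166 and 118 CPM, also had it. *Supt6* itself did not share this pattern, at 28.6, 24.1, 21.9 and 28.4 CPM in mice 1 to 4. Mouse 4 also had the highest TMM factor of the *Supt6*-KO mice (0.9098, against 0.6738 to 0.7808) and the most *Krt14* counts, and the part of these differences in the pattern was not tested.

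**Figure D3:**
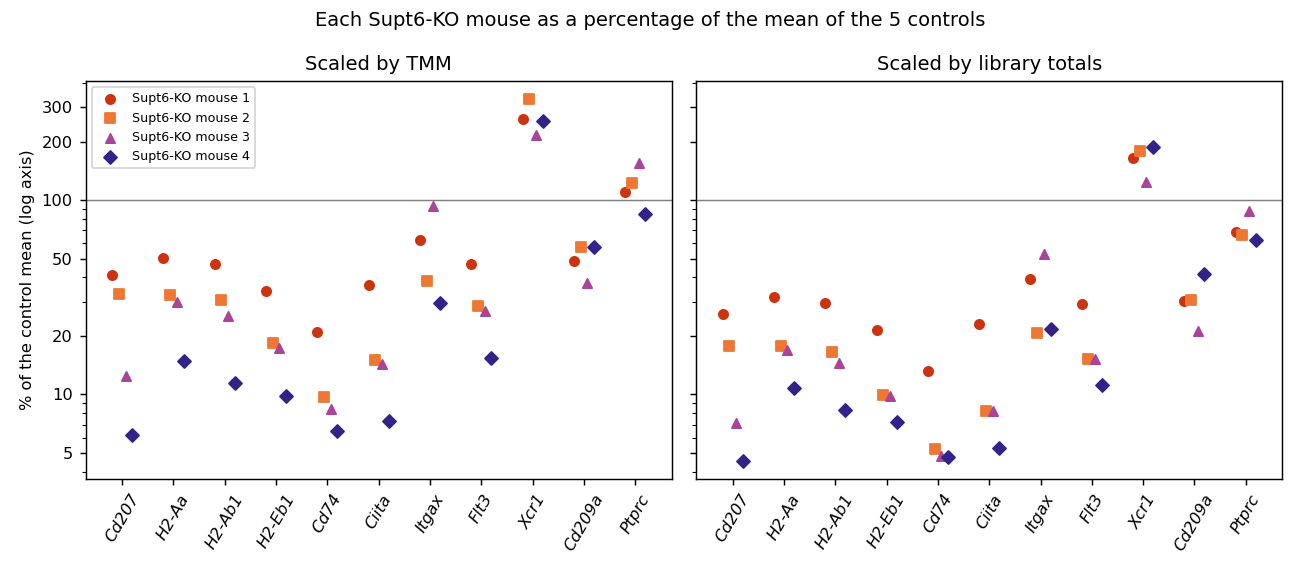
Level of each of the 10 genes and of *Ptprc* in each *Supt6*-KO mouse as a percentage of the mean of the 5 controls (log axis), scaled by TMM on the left and by library totals on the right. *Cd207* runs from 41% in mouse 1 to 6.17% in mouse 4 with TMM, whereas *Xcr1* lies above the line at 100% in every mouse under both scalings.

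Other genes of the MHC class II pathway went both ways. Of 18 such genes, 5 were lower, 4 higher and 9 not called, with a median log2 fold change of 0.03 (-0.68 with library totals). With the length correction 8 were lower and 5 higher. Over all genes tested 36.8% were called lower and 34.1% higher, so the counts alone do not set this list apart. The list counts in the paragraphs below are to be read beside the same shares. The lower genes included those of the H2-DM peptide editor: *H2-DMa* fell from 31.8 ± 5 CPM in the controls (SD, n = 5) to 9.51 ± 1.48 CPM in *Supt6*-KO skin (SD, n = 4), with a log2 fold change of -1.74 (SE 0.16, edgeR adjusted p = 3.9e-06). *H2-DMb1* and *H2-DMb2* fell by 1.26 and 1.27 on the log2 scale. *H2-Oa*, which encodes a chain of the H2-O regulator of H2-DM, had 10 to 19 counts in controls and 2, 1, 0 and 2 counts in *Supt6*-KO mice. *H2-Ob* was at -0.95 and not called with TMM, and was called lower with library totals (-1.66, edgeR adjusted p = 0.0058). *Rfx5*, a DNA-binding subunit of the RFX complex, fell by 1.05 on the log2 scale (SE 0.18, edgeR adjusted p = 0.00026). Its partner genes *Rfxap* and *Rfxank* were at 0.04 and 0.11 and not called with TMM, with directions that turned under other scalings. With library totals both were called lower (-0.65, edgeR adjusted p = 0.0015, and -0.60, edgeR adjusted p = 0.0034).

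The higher genes of this list encode proteases of the endosome and an NF-Y subunit. *Ctsl*, the gene of cathepsin L, rose from 414 ± 56.5 CPM in the controls (SD, n = 5) to 1222 ± 88.6 CPM in *Supt6*-KO skin (SD, n = 4), with a log2 fold change of 1.56 (SE 0.15, edgeR adjusted p = 4.1e-06). *Ctss*, whose product cathepsin S trims the invariant chain in antigen-presenting cells, had a log2 fold change of 0.99. For *Lgmn*, the asparaginyl endopeptidase gene, it was 0.89, and for *Nfyb* 0.73. These last 3 genes were called with TMM but not with library totals, at 0.28, 0.19 and 0.06, and the count of the list was then 1 higher and 13 lower. *H2-Ea* was not analysed here.

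The MHC class I pathway, which every nucleated cell uses, gave 7 lower, 5 higher and 2 uncalled genes of 14, with a median log2 fold change of -0.34. With library totals the list had 9 lower genes and 1 higher gene and a median of -1.04. Genes that serve peptide loading went both ways. *Tapbp*, the tapasin gene, fell by 1.39 (SE 0.16, edgeR adjusted p = 1.4e-05) and the transporter gene *Tap2* by 1.52 on the log2 scale (SE 0.18, edgeR adjusted p = 2.1e-05). *Calr* and *Pdia3*, the genes of the loading chaperones calreticulin and ERp57, were higher with TMM, at 1.02 and 0.96, and not called with library totals (0.39 and 0.28). *B2m*, the light chain gene, had a log2 fold change of -0.99, and its groups overlapped. *H2-K1* was called lower at -0.67 (edgeR adjusted p = 0.026). Its call was lost without any 1 of controls 2 to 4 or *Supt6*-KO mice 2 to 4 (-0.64 to -0.57). *H2-D1* was not called with TMM (-0.21). It was called lower with library totals (-0.90, edgeR adjusted p = 0.0026) and with the correction for gene length (-0.80, edgeR adjusted p = 0.0039). *Nlrc5*, the class I counterpart of *Ciita*, had a log2 fold change of -1.20 (edgeR adjusted p = 0.0027), which came to -0.35 and was not called with the correction for gene length. The immunoproteasome gene *Psmb10* rose by 1.48 on the log2 scale (SE 0.16, edgeR adjusted p = 1e-05). *Psmb8* and *Psmb9* were called higher with TMM (1.00 and 1.40), but their groups overlapped. Neither was called with library totals (0.27 and 0.65), with the length correction (0.54 and 0.82) or without *Supt6*-KO mouse 3 (0.78 and 0.98).

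Of 13 genes that serve the upkeep of Langerhans cells, 8 were lower, 2 higher and 3 not called. *Il34*, the keratinocyte cytokine on which resident Langerhans cells depend, fell from 58.8 ± 5.44 CPM in the controls (SD, n = 5) to 19.7 ± 7.16 CPM in *Supt6*-KO skin (SD, n = 4), with a log2 fold change of -1.58 (SE 0.23, edgeR adjusted p = 9.9e-05). Its counts were 2223, 2305, 2249, 2201 and 1943 in controls 1 to 5 and 631, 491, 409 and 279 in *Supt6*-KO mice 1 to 4, without overlap. *Csf1r*, the receptor gene for IL-34 and CSF1, fell by 1.83 and *Csf1* by 1.32 on the log2 scale. *Runx3*, a transcription factor gene needed for Langerhans cells, fell by 2.00 and *Tgfb1* by 1.01. *Itgb8*, an integrin gene that helps to activate TGF-β, was higher with TMM (1.05) and not called with library totals (0.33). The transcription factor gene *Id2* was at -0.23 and not called with TMM, and was called lower with library totals (-0.95, edgeR adjusted p = 5.6e-05) and with the length correction (-0.57, edgeR adjusted p = 0.0018). With library totals 10 genes of this list were lower and 0 higher in edgeR, also 0 at an unadjusted p under 0.05, and DESeq2 with its own size factors called 2 higher.

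Of 11 genes of Langerhans cell and monocyte migration, 7 were higher, 1 was lower and 3 were not called, and with library totals 3 were higher and 3 lower. *Ccr7*, the receptor gene with which dendritic cells leave for the lymph node, had 5 to 15 counts in controls and 28, 13, 21 and 19 counts in *Supt6*-KO mice. It rose from 0.303 ± 0.115 CPM to 0.859 ± 0.254 CPM (edgeR adjusted p = 0.0029), but with library totals it was at 0.81 on the log2 scale and not called. *Cxcr4* rose by 2.04 on the log2 scale (SE 0.22, edgeR adjusted p = 1.1e-05). *Ccl2*, the chemokine gene that draws monocytes, rose by 2.78 (SE 0.33, edgeR adjusted p = 1.8e-05). *Mmp2*, a gelatinase gene that fibroblasts also express, fell by 2.09 and was the lower gene of this list.

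A list of 15 other genes tied to conventional dendritic cells, among them ligands that act on these cells, also split, with 7 lower, 3 higher and 5 not called and a median log2 fold change of -0.53. *Irf4*, a transcription factor gene of type 2 cells, fell to 32.9% of the control level and *Mgl2*, a lectin gene of CD301b dendritic cells, to 26.5%. *Clec10a*, the lectin gene of CD301a and a neighbouring paralog of *Mgl2*, rose from 11.1 ± 3.5 CPM in the controls (SD, n = 5) to 43.3 ± 8.72 CPM in *Supt6*-KO skin (SD, n = 4), with a log2 fold change of 1.96 (SE 0.22, edgeR adjusted p = 1.2e-05). Reads shared between such similar genes could have been split by the counting, so each of these values is less certain. Genes linked to type 1 cells went both ways. *Irf8*, which these cells need, was higher with TMM, at 0.85, but it was not called with library totals (0.15). *Naaa*, a lipid hydrolase gene that type 1 cells express strongly, rose by 1.23 on the log2 scale (SE 0.15, edgeR adjusted p = 2.2e-05) and was called with library totals too. *Batf3*, a transcription factor gene of these cells, was at 0.15 with 4 to 10 counts per mouse and not called, a direction that turned with library totals (-0.54). *Cadm1* and *Itgae*, adhesion genes that other skin cells also express, were lower, at -0.95 and -1.40. *Wdfy4* and *Tlr3* were lower at -1.11 and -0.55 with overlapping groups, and both calls were fragile. Neither gene was called with the length correction or without control 5 (-0.61 and -0.39), *Wdfy4* was also lost without control 4 or any 1 of the *Supt6*-KO mice, and *Tlr3* without control 3 or *Supt6*-KO mouse 1, 3 or 4. *Clec9a*, another receptor gene of type 1 cells, had 6 to 12 counts in controls and 3 to 7 in *Supt6*-KO mice and was not called (-0.41), but it was called lower with library totals (-1.08, edgeR adjusted p = 0.035). *Xcl1*, the gene of the ligand of XCR1, fell from 40 to 118 counts in controls to 1, 8, 5 and 4 counts in *Supt6*-KO mice (log2 fold change -3.30, SE 0.53, edgeR adjusted p = 0.00018). *Zbtb46*, which marks conventional dendritic cells, was at -0.53 and not called, and at -1.20 and called with library totals (edgeR adjusted p = 0.012). The list then had 11 lower and 2 higher genes.

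Of 10 genes of mature dendritic cells tested, 5 were higher, 1 was lower and 4 were not called. With library totals 0 were higher in edgeR and 3 lower, where 2 were higher at an unadjusted p under 0.05, and DESeq2 with its own size factors called 5 higher. *Ccr7*, given above with the migration genes, is among the higher genes of this list as well. The costimulatory genes *Cd80* and *Cd40* had log2 fold changes of 1.36 and 1.15, and with library totals neither was called (0.71 and 0.41). The groups of *Cd40* overlapped, as *Supt6*-KO mouse 4 at 1.26 CPM was under controls 3 and 5 at 1.36 and 1.27 CPM. *Relb*, an NF-κB subunit gene of mature cells, fell by 0.88 (edgeR adjusted p = 0.0011). *Cd86* was at 0.27 and not called with TMM, but it was called lower with library totals (-0.45, edgeR adjusted p = 0.035) and higher with the length correction (0.48, edgeR adjusted p = 0.045) and without *Supt6*-KO mouse 4 (0.43, edgeR adjusted p = 0.018). Of 5 genes of plasmacytoid dendritic cells 2 were higher, 1 was lower and 2 were not called, among them *Siglech*, with 6 to 26 counts in controls and 6 to 17 in *Supt6*-KO mice. *Siglech* was called higher without control 5 (1.12, edgeR adjusted p = 0.024, against 0.56 with all mice).

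Interferon-γ is the classical inducer of *Ciita*, and 2 chemokine genes of its response were called higher in *Supt6*-KO skin. In mouse 4, *Cxcl9* at 2.01 CPM lay within the range of the controls. The relation of these genes to the level of *Ciita* was not tested. *Ifng* had 0 counts in all controls and 5, 1, 5 and 4 counts in *Supt6*-KO mice, too few for a fold. *Cxcl9* had 38, 56, 75, 185 and 48 counts in controls and 473, 636, 1024 and 56 counts in *Supt6*-KO mice, so the groups overlapped through mouse 4 (log2 fold change 3.51, SE 0.72, edgeR adjusted p = 0.001). *Cxcl10* had 29, 43, 44, 87 and 17 counts in controls and 293, 228, 622 and 66 counts in *Supt6*-KO mice, a log2 fold change of 3.50 (SE 0.62, edgeR adjusted p = 0.00038). Mouse 4 was barely above control 4, at 2.37 against 2.35 CPM. *Irf1* had a log2 fold change of 1.03 with TMM, and with library totals it was at 0.29 and not called. Of 10 genes of the list 7 were higher and 3 lower, and with library totals 4 were higher and 3 lower.

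Of 8 paralogs of *Cd209a* and *Itgax* tested, 3 were higher and the other 5 were not called in edgeR, and with library totals 1 was higher and 1 lower. *Cd209c* rose by 1.90 on the log2 scale (SE 0.37, edgeR adjusted p = 0.00066) while *Cd209a* fell. *Itgam*, the gene of CD11b, had a log2 fold change of 1.06 with TMM and of 0.36, not called, with library totals. Reads shared among the *Cd209* genes could have been divided between them by the counting.

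Markers of other blood cells moved too, and their part in the results for the 10 genes was not tested. Of 12 macrophage and monocyte genes 8 were higher and 2 lower, 4 and 2 with library totals, and their summed level was 92 to 247 CPM in controls and 261 to 333 CPM in *Supt6*-KO mice, led by *Mrc1* (log2 fold change 1.89). *Fcgr1*, the gene of the monocyte and macrophage receptor CD64, rose by 3.17, whereas *Mertk* fell by 1.28. Of 7 neutrophil genes tested 6 were higher and 1 lower, with a sum of 14.1 to 42.8 CPM in controls and 2516 to 6449 CPM in *Supt6*-KO mice. Most of this sum came from *S100a9*, which inflamed keratinocytes also make, and *S100a8*. They had means of 2715 and 1919 CPM in *Supt6*-KO mice, of 4677 CPM for the list, so the sum is not a measure of neutrophils. *Ly6g* had 4, 0, 15 and 1 counts in *Supt6*-KO mice 1 to 4 and at most 1 in a control, with overlapping groups. The granule gene *Mpo* was at 0 in 3 of the 4 *Supt6*-KO mice. *Csf3r*, the neutrophil growth factor receptor gene, rose by 4.08 on the log2 scale (edgeR adjusted p = 8.7e-07).

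B cells carry MHC class II as well, and 4 of their genes had low counts. *Ms4a1*, the gene of CD20, had 0 counts in each control and at most 3 in a *Supt6*-KO mouse. Of 4 B cell genes 2 had enough counts to be tested, 1 of them higher with TMM but not with library totals and 1 not called. The list, led by *Cd79b*, summed to at most 0.28 CPM in a control and 0.778 CPM in a *Supt6*-KO mouse. The part of B cells in the MHC class II levels was not tested. Of 7 T cell genes 3 were lower, 1 higher and 3 not called, 5 lower and 1 higher with library totals, with a sum of 28.7 to 39.4 CPM in controls and 9.2 to 16.4 CPM in *Supt6*-KO mice, led by *Cd3g* (-2.65). Among 7 pan-leukocyte genes 4 were higher, 1 was lower and 2 were not called, and with library totals 2 were higher and 2 lower. *Tyrobp*, a signaling adaptor gene of myeloid cells, and *Cd53*, a tetraspanin gene of leukocytes, were among the higher genes with both scalings.

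Keratinocyte and fibroblast RNA differed between the groups as well. The 6 keratinocyte genes summed to 23694 to 26373 CPM in controls and to 28636 to 40531 CPM in *Supt6*-KO mice. Of these genes 3 were lower and 1 higher with TMM, and 4 lower and 1 higher with library totals. The gene called higher with TMM in edgeR was *Krt1*, a keratin gene of differentiating keratinocytes. It rose from 833 ± 159 CPM in controls to 10424 ± 2428 CPM in *Supt6*-KO mice (log2 fold change 3.65). DESeq2 called 2 genes of the list higher, with *Krt14* at 0.72 (DESeq2 adjusted p = 0.015). In edgeR *Krt14* was not called (0.66, edgeR adjusted p = 0.063), but it was called higher without *Supt6*-KO mouse 2 (0.84, edgeR adjusted p = 0.021). *Krt10*, the most abundant of the list, was at 14343 ± 730 and 16352 ± 5762 CPM and was not called. The 6 fibroblast genes, led by *Col3a1*, summed to 2928 to 10542 CPM in controls and to 1948 to 3781 CPM in *Supt6*-KO mice, with 4 lower and the other 2 not called with TMM in edgeR and all 6 lower with library totals. With TMM *Col1a1* had a log2 fold change of -3.64. The part of these shifts in the levels of the 10 genes was not tested.

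The genes with the pattern most like that of *Cd207* over the 9 mice were sought among 13479 genes, by the root mean square difference in log2 CPM after each gene's control mean was subtracted. They were *Cyp2j8* (0.277), *Pnpla5*, *Gm5127*, *Ppfia4* and *Panx3* (up to 0.327), all closer to *Cd207* than any of the other 9 genes, of which *H2-Eb1* was the nearest at 0.435. For *H2-Ab1* they were *Gna14* (0.150), *Ackr4* (0.154), *Klrk1* (0.182), *Abcg4* (0.239) and *Camkk1* (0.249), and *H2-Aa*, at 0.155, ranked among them. For *Cd209a* they were *Zfp382* (0.136), *1700019D03Rik* (0.153), *Tarsl2* (0.153), *Rgs3* (0.154) and *R3hdm1* (0.158), and the nearest of the other 9 genes was *Itgax* at 0.613. With so many genes changed between the groups, a like pattern over 9 mice is a description of level only.

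**Figure D4:**
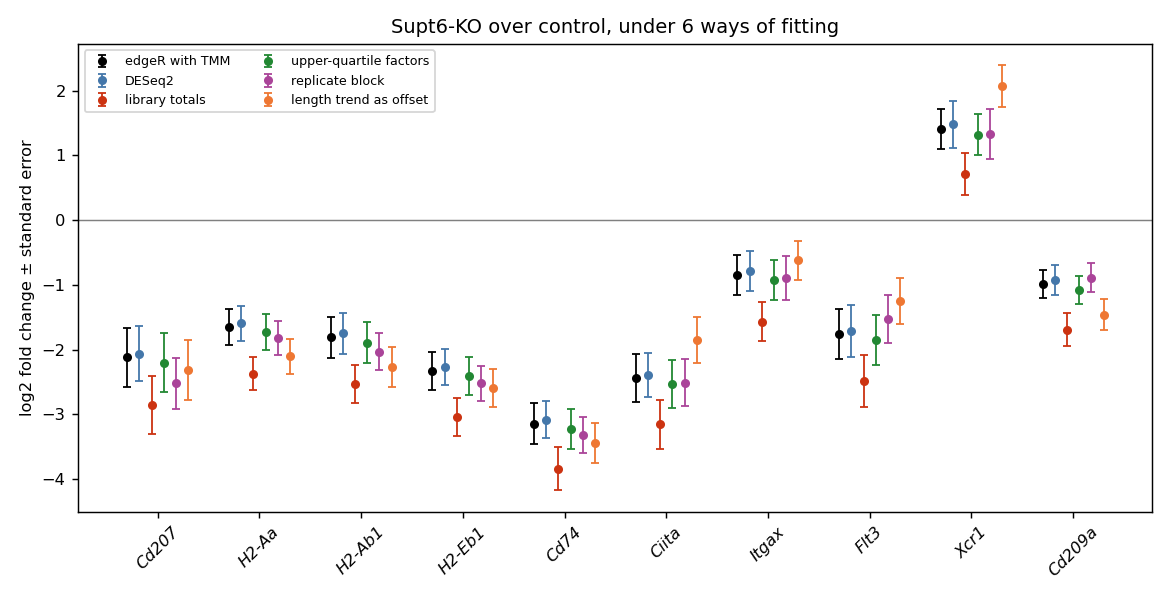
Log2 fold change (*Supt6*-KO over control) of the 10 genes with its standard error under 6 ways of fitting the same counts. *Cd207*, *Cd74*, *Ciita*, *Flt3*, *Cd209a* and the 3 chain genes stay below 0 under each of them, *Itgax* comes nearest to 0 from below, and *Xcr1* stays above 0, lowest with library totals at 0.71.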

How the data were processed

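Whole-skin RNA-Seq libraries of 5 control and 4 *Supt6*-KO mice were used, with groups and replicate numbers from the sample labels. Nothing in the labels ties the mice to litters, so p-values measure the spread between these samples. According to the submitters' processing notes and the study's methods, the authors aligned reads to mm10 with Bowtie2 2.3.4.3 and deposited expected counts per gene from RSEM 1.3.1, not normalized between mice, with TPM values for 6 mice. HISAT and DESeq2 1.4.5 are also named there. The authors' RSEM shares reads among similar genes by estimation, which makes counts of paralogs less certain. Of the expected counts 9.001% were not whole, and all were rounded.

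Genes with a sum under 10 counts over the 9 mice were left out. The groups were compared with edgeR 4.0.16 (R 4.3.3, TMM factors, quasi-likelihood test, no covariates, Benjamini-Hochberg adjustment). As alternatives, DESeq2 1.42.0 was run, and edgeR with library totals, with upper-quartile factors, after removal of the 50 most abundant genes, no filter, at least 10 counts in every mouse, a replicate block, a length trend as offset, and each mouse left out. Tables were made with Python 3.11.15 and pandas 2.3.3. Counts summed to 29627334 to 30967109 per mouse, and a floor of 3 counts covers counting error only. Gene identifiers were matched to RefSeq for 17917 of 17943 rows, and positions and lengths are those of the GENCODE annotation of mm10.

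A test on simulated counts for this comparison had 16215 genes tested and 200 changed by 2 on the log2 scale. In it edgeR recovered 96.5% of the changed genes and called 10 unchanged genes, and DESeq2 recovered 97% and called 32. The changed genes were drawn from those above 1 CPM in controls, with as many raised as lowered. In the real libraries 36.8% of genes tested were called lower and 34.1% higher, so these rates do not carry over to them. *Xcr1*, at 0.464 CPM in controls, lay under the level from which changed genes were drawn.

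The members and the gene lists were chosen with earlier results of these data known. The genes named are the 10 genes, *Supt6*, genes of 16 lists and, for *Cd207*, *H2-Ab1* and *Cd209a*, the 5 genes outside the 10 with the most similar pattern among genes with at least 1 CPM in controls. A further 2 genes were taken out of these lists and are not reported here.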

Additional observations from a re-analysis of the deposited data

Results flagged for a closer look

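A mouse far from the rest of its group was sought in 58 groups of 4 or 5 mice (levels of the 10 genes, *Supt6* and *Ptprc*, and ratios within a library), and 4 were found, where chance gives about 2.9, that is about 1 in 20. The ratio of *Ciita* to *Ptprc* was 0.0811 in *Supt6*-KO mouse 1, against a group median of 0.0261, and remained below every control. The ratio of *Itgax* to *Ptprc* was 0.272 in control 4, against a median of 0.207. The ratio of *H2-Aa* to *Ciita* was 42 in control 5 (median 59.4), the control with the most *Ciita* counts, and 77.7 in *Supt6*-KO mouse 1 (median 116).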

How the results depend on the processing

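With library totals 2771 genes were higher and 8970 lower, against 5608 and 6050 with TMM. Of the 10 genes 0 were then higher by edgeR, since *Xcr1* at 0.71 missed the threshold (1 at an unadjusted p under 0.05, and 1 adjusted by DESeq2 with its own size factors), and 9 were lower. With at least 10 counts in every mouse 0 were higher and 7 lower, because *Xcr1*, *Ciita* and *Flt3* were not tested. Over the 10 genes, 162 of 167 alternative values kept their direction and their side of the threshold. The exceptions were 1 for *Xcr1* and 4 for *Itgax*, given with those genes. Over all alternatives *Cd207* ranged from -2.85 to -1.80, *Cd74* from -3.84 to -2.95, *H2-Aa* from -2.37 to -1.42, *Ciita* from -3.15 to -1.85 and *Cd209a* from -1.69 to -0.88. With each mouse left out, 8 to 9 of the 10 genes were lower and 1 higher.

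Directions turned with library totals for *Rfxap* (-0.65), *Rfxank* (-0.60), *Ifi30* (-0.60), *Epcam* (-0.32), *Cd86* (-0.45), *Batf3* (-0.54), *Siglech* (-0.14), *Ptprc* (-0.49), *Coro1a* (-0.28) and *Adgre1* (-0.19). Of these genes, *Rfxap*, *Rfxank*, *Ifi30*, *Cd86* and *Ptprc* were then called lower. With the length trend directions turned for *Rfxap* (-0.20), *Ifi30* (-0.35), *Batf3* (-0.30) and *Coro1a* (-0.03). With each mouse left out, *Batf3* ranged from -0.13 to 0.36. *Rfxap* was also at -0.04 with upper-quartile factors, -0.01 with at least 10 counts in every mouse, and between -0.02 (without *Supt6*-KO mouse 2) and 0.08 with each mouse left out. The cause was not tested.

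Deviations of same-numbered mice from their group means had a mean correlation of 0.079 over 4 pairs against -0.016 over 16 other pairs, so the numbers were not taken to pair the mice. With the replicate block 9 of the 10 genes were lower and 1 higher, *Rfxap* was at -0.01, *Wdfy4* (-0.57) and *Tlr3* (-0.39) were not called, and 5251 genes were higher and 5800 lower. Depth limits *Xcr1*, which rests on 9 to 33 counts per mouse.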
